A study of Caenorhabditis elegans
Pristionchus pacificus with 6 samples.

Results

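Histone genes of the nematode Caenorhabditis elegans were followed in RNA from dissected anterior intestines with normal or reduced ploidy. The members were the genes his-1 to his-72 and the linker histone genes hil-1 to hil-7, taken by their serial WormBase identifiers. Of these 79 identifiers, 78 were present among 73268 rows for 2 species, and his-23 had no row. A total of 77 symbols also occurred in the RefSeq gene table (assembly WBcel235), and the rows of these members followed the RefSeq order along every chromosome in 71 of 71 steps. No coordinates are printed, because no source used here names the build behind the counts.

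Adult hermaphrodites were dissected 72 hours after egg lay at 20 °C. Control worms carried cdk-2::ZF::GFP, in which the kinase gene cdk-2 is tagged, together with the zif-1(gk117) mutation. CDK-2gut(-) worms carried the same tag and mutation and, in addition, asp-1p::vhhGFP4::zif-1, a GFP-binding nanobody fused to the degradation adaptor ZIF-1 under the promoter of an intestinal protease gene. The comparison is thus between worms that share the tagged kinase and the zif-1 mutation and differ in the transgene. Each strain gave 3 libraries, numbered 1 to 3, from pooled lysates to which an equal amount of intestine lysate of Pristionchus pacificus, another nematode, dissected at 96 hours, was added as a spike-in. Nothing in the labels says whether the 3 libraries were grown as separate cultures, and p-values therefore reflect library-to-library spread that may be technical. Rows taken as C. elegans held 9432973 to 10665065 counts in control and 11273570 to 15874554 in CDK-2gut(-). Identifiers of cdk-2, zif-1, intestinal markers and markers of germline, muscle or other carried-over tissue could not be paired with symbols, and these genes were not analysed here.

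DNA is wound around nucleosomes built of the core histones H2A, H2B, H3 and H4, and linker histones bind the DNA between nucleosomes. Most core histone genes are replication-dependent: they are copied in clusters along the genome, are transcribed mainly while DNA is being replicated, and their mRNAs mostly end in a stem-loop in place of a poly(A) tail. Replacement histones such as H3.3 are made and inserted outside replication as well. Intestinal cells of C. elegans become polyploid by endocycles, rounds of DNA replication without division, for which CDK-2 is one of the kinases that drive S phase.

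Members were grouped by the histone they encode and by their gene model in the RefSeq table. A core histone gene was called compact when the length of its model was shared by at least 3 genes of its class, which is the coding length of that class (312 bases for H4, 411 for H3, 384 for H2A, 369 or 372 for H2B). This gave 60 compact genes, 15 of each class, which stand here for the replication-dependent genes. The 4 core genes with longer models were his-35 and his-57 (H2A), his-37 (H4) and his-41 (H2B). The H3.3-type genes were his-69 to his-72, and the 8 linker genes were hil-1 to hil-7 and his-24, which encodes an H1. His-36 and his-39 were not assigned to a class. Reads that map to several places had been left out before deposit, so near-identical histone copies may be undercounted by unequal amounts. Shares and ratios between genes therefore describe the counted reads, not the relative levels of their transcripts.

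Counted reads of compact core histone genes were near the detection limit in control intestines and abundant in CDK-2gut(-) intestines. Their summed counts were 81, 256 and 78 in control libraries 1 to 3, against 9567, 7365 and 8144 in CDK-2gut(-). Scaled to a C. elegans total of 1000000 counts per library (CPM), the sum was 8.59, 24.004 and 7.77 in control and 603, 586 and 722 in CDK-2gut(-). The groups did not overlap, and every CDK-2gut(-) library lay more than an order of magnitude above every control. Control libraries averaged 13.5 ± 9.15 (SD, n = 3) CPM and CDK-2gut(-) libraries 637 ± 74.5 (SD, n = 3), a 47.3-fold difference. Control library 2 was the highest control, and without it the log2 ratio of the means was 6.28 instead of 5.57. Within replicate numbers 1, 2 and 3 the fold was 70.2, 24.4 and 93.0. Scaled in the same way to the P. pacificus total in place of the C. elegans total, the sum was 45.98, 108 and 21.6 CPM in control and 3126, 2701 and 2006 in CDK-2gut(-), a 44.5-fold difference in means. In bulk tissue, more RNA per cell and more cells that make it cannot be told apart. Counts also cover only RNA that the library kit captured. Whether the captured part of these mRNAs, which mostly lack a poly(A) tail, differed between strains was not tested.

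**Figure D1:**
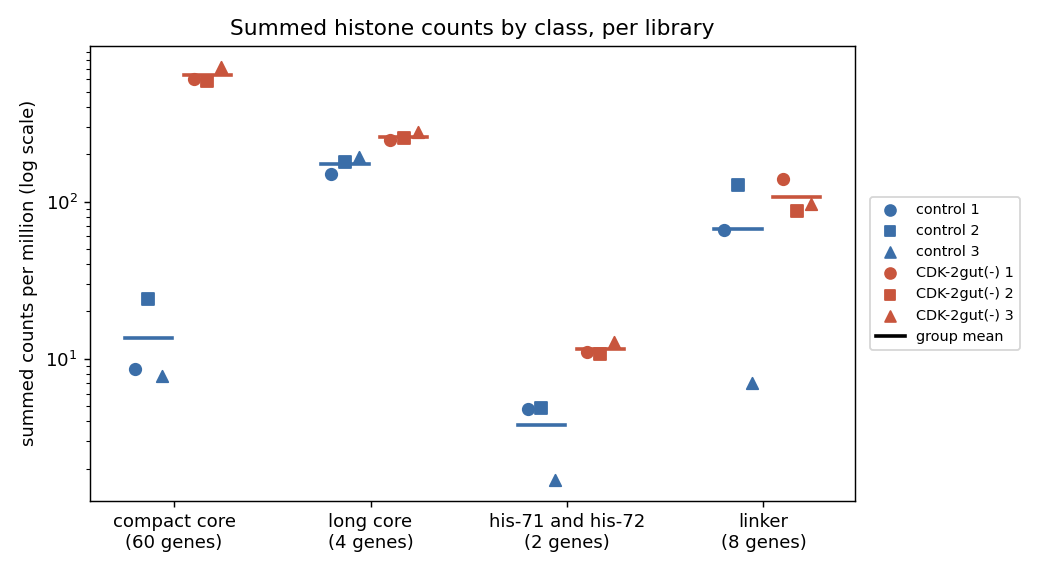
Summed CPM (scaled to the C. elegans total; log scale) for 60 compact core, 4 long core, 2 H3.3 and 8 linker histone genes, with 1 point per library and a line at each group mean. The compact sum lies between 7.77 and 24.004 in control and between 586 and 722 in CDK-2gut(-), while the linker sums of the strains overlap.

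The 4 core classes rose together in sum. H4 stood at 1.70, 5.63 and 2.69 CPM in control and 295, 291 and 343 in CDK-2gut(-), a 92.8-fold difference in means. H3 went from 4.56, 6.94 and 2.89 to 188, 175 and 229, or 41.2-fold. For H2B, values of 1.27, 4.59 and 1.39 stood against 64.9, 66.4 and 83.9, or 29.6-fold. H2A had 1.06, 6.84 and 0.797 against 55.4, 53.4 and 65.8, or 20.1-fold. No class overlapped between strains. The balance between classes was narrow across CDK-2gut(-) libraries, with 1.57, 1.66 and 1.496 compact H4 counts per compact H3 count and 0.853, 0.804 and 0.784 H2A counts per H2B count. In control, the same ratios were 0.372, 0.811 and 0.931 for H4 per H3 and 0.833, 1.49 and 0.571 for H2A per H2B, from few counts.

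Gene by gene, differences were tested by edgeR's quasi-likelihood test over all C. elegans genes that passed a filter on low counts, with Benjamini-Hochberg adjustment and an adjusted p under 0.05. One fit compared genes with the rest of the C. elegans transcriptome (composition fit), and another scaled libraries to P. pacificus counts (spike-in fit). Of 8309 genes tested in the composition fit, 11.8% were called higher and 6.84% lower in CDK-2gut(-). Of the 78 histone genes, 32 were tested, 15 were called higher and 0 lower. All 15 were compact genes, from 6 of the 11 clusters that hold compact genes. DESeq2, which called 11% of genes higher and 9.86% lower, also called 15 histone genes higher and 0 lower. However, 14 of the 15 had no control library above the filter and passed it through the CDK-2gut(-) libraries, so a count among tested members had to lean upward. In the spike-in fit, where 16.4% of genes were called higher and 2.47% lower, the same 15 were called higher together with his-41, and 0 were lower.

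The median log2 fold over all tested genes was 0.10 in the composition fit, 0.55 in the spike-in fit and 0.51 with plain totals, the scale of the CPM values given here. The 15 called compact genes had log2 folds of 2.53 to 10.14 in the composition fit and 2.93 to 10.50 in the spike-in fit. They were selected as called higher, so positive folds follow from the selection, which also favours large ones. Their size against these medians is therefore no separate result. They held 118 counts over the 3 control libraries and 24335 over the 3 CDK-2gut(-) libraries. With the replicate number as a block, 15 of the 15 were again called in both fits. When each library was left out in turn, 10 of the 15 were called each time in the composition fit and 12 in the spike-in fit. Leaving out 1 control library moved the composition fold of 8 called genes by over 1.5 times. Log2 folds went to 5.85 (his-38) and 4.89 (his-4) without control library 3, to 8.47 (his-40), 4.59 (his-16), 6.90 (his-11), 9.42 (his-8), 3.50 (his-2) and 10.18 (his-5) without library 2, and to 12.44 (his-8), 5.54 (his-2) and 2.88 (his-4) without library 1.

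**Figure D2:**
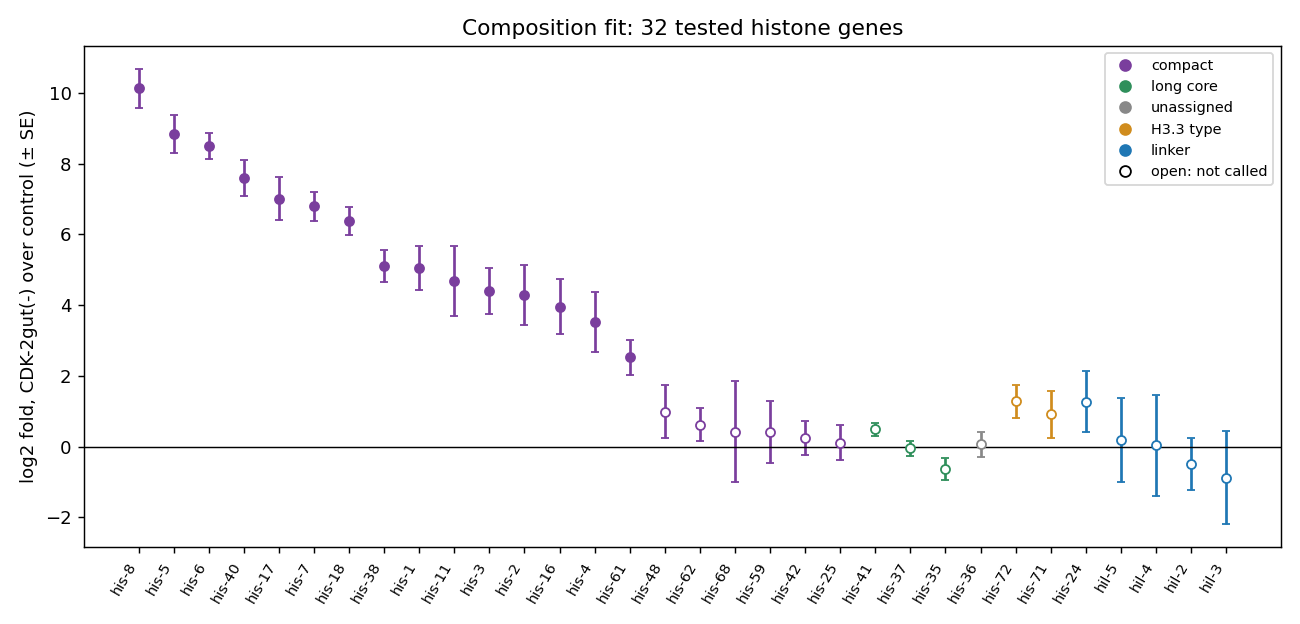
Log2 fold of CDK-2gut(-) over control in the composition fit with its standard error for 32 tested histone genes, grouped by class. Filled points were called at an adjusted p under 0.05, and the 15 filled points, all compact genes, lie between 2.53 and 10.14.

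The cluster of his-5 to his-8 carried most of these counts. His-5, an H4 gene, had 1, 8 and 1 counts in control and 2963, 2378 and 2493 in CDK-2gut(-), or 0.106, 0.750 and 0.0996 against 187, 189 and 221 CPM. Its log2 fold was 8.83 ± 0.53 (SE; edgeR adjusted p = 6.6e-05) in the composition fit, and control library 2 held most of its control counts. His-6, the H3 gene beside it, rose from 2, 2 and 3 counts to 1651, 1209 and 1612. Its log2 fold was 8.50 ± 0.37 (SE; edgeR adjusted p = 1.13e-05). Both genes were near 0 in every control, against at least 2378 and 1209 counts in every CDK-2gut(-) library.

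The H2A gene his-7 had 3, 5 and 1 counts in control and 588, 534 and 599 in CDK-2gut(-), and its log2 fold was 6.80 ± 0.41 (SE; edgeR adjusted p = 4.66e-05). His-8, an H2B gene, had 1, 0 and 0 counts in control and 869, 723 and 840 in CDK-2gut(-) (edgeR adjusted p = 3.15e-05). With a single control count its ratio of depth-scaled counts was 1845, with a 95% counting interval of 331 to 72912, which covers counting error only. The pair of H2A and H2B genes thus moved the same way as the H3 and H4 pair of this cluster. His-39, the short unassigned gene next to his-5, had 0 counts in control and 0, 3 and 8 in CDK-2gut(-), too few to pass the filter. Without a filter it was not called (edgeR adjusted p = 0.262 in the composition fit and 0.235 in the spike-in fit).

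A second site with a large rise was the pair his-38 (H4) and his-40 (H3), which stand on adjacent rows apart from other members. His-38 had 8, 7 and 21 counts in control and 959, 747 and 563 in CDK-2gut(-). The fitted log2 fold of his-38 was 5.11 ± 0.45 (SE; edgeR adjusted p = 0.000311). His-40 had 2, 5 and 0 counts in control and 997, 755 and 671 in CDK-2gut(-), and its log2 fold reached 7.60 ± 0.51 (SE; edgeR adjusted p = 6.94e-05). In control library 3, his-38 was at its highest control count while his-40 was at 0. Among CDK-2gut(-) libraries, both genes were lowest in library 3, at 49.9 CPM for his-38 and 59.5 for his-40, whereas his-5 to his-8 were each highest there.

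His-17 (H3) and his-18 (H4), another adjacent pair, also rose. His-17 had 0, 1 and 1 counts in control and 167, 132 and 188 in CDK-2gut(-), and its ratio of depth-scaled counts was 185, with a 95% counting interval of 50.9 to 1530 (edgeR adjusted p = 0.000158). His-18 had 4, 5 and 4 counts against 615, 490 and 734, with log2 fold 6.38 ± 0.39 (SE; edgeR adjusted p = 4.66e-05). The 6 other compact genes within 10 rows of this run, his-19 to his-22, his-27 and his-28, had at most 3 counts in any library. Whether those neighbours are silent or their reads map to several places cannot be told apart from these counts.

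**Figure D3:**
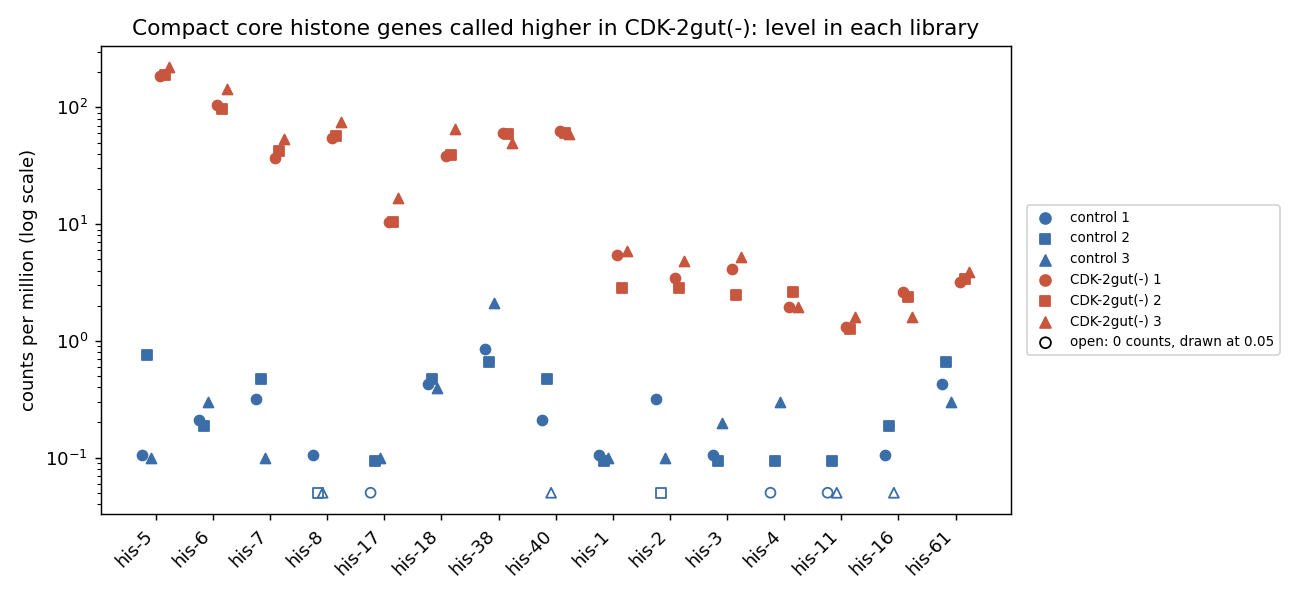
CPM (scaled to the C. elegans total; log scale) of the 15 compact core histone genes called higher in CDK-2gut(-), with 1 point per library and open points for libraries with 0 counts. None of these genes, which are shown because they were called, overlaps between strains. His-5 reaches 187 to 221 in CDK-2gut(-) against 0.0996 to 0.750 in control. Among the 49 compact genes with a count in any library, 25 lie above control without overlap, against 23.4% of all C. elegans genes with a count.

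His-1 to his-4, a cluster with 1 gene of each class, also rose, to fewer counts than the genes described so far. His-1 (H4) had 1, 1 and 1 counts in control and 86, 36 and 66 in CDK-2gut(-), and his-2 (H3) had 3, 0 and 1 against 55, 36 and 54. His-3 (H2A) had 1, 1 and 2 counts against 66, 31 and 59, and his-4 (H2B) had 0, 1 and 3 against 31, 33 and 22. In the first 3 of these genes, CDK-2gut(-) library 2 was the lowest of its strain. Composition-fit log2 folds ran from 3.53 ± 0.85 (SE; edgeR adjusted p = 0.0219) for his-4 to 5.04 ± 0.62 (SE; edgeR adjusted p = 0.00105) for his-1. The call of his-4 was lost without control library 1 or 2 or any of the CDK-2gut(-) libraries (adjusted p of 0.0626 to 0.104), and that of his-2 without CDK-2gut(-) library 3 (adjusted p = 0.0568).

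The remaining called genes were his-11, his-16 and his-61. His-11 (H2B) had 0, 1 and 0 counts in control and 21, 16 and 18 in CDK-2gut(-), and his-16 (H2A) had 1, 2 and 0 against 42, 30 and 18. Their edgeR adjusted p-values in the composition fit were 0.0124 and 0.00969. The call of his-11 was lost without control library 1 or CDK-2gut(-) library 2 or 3 (adjusted p of 0.0586 to 0.0835), and that of his-16 without CDK-2gut(-) library 2 (0.0551). Both belong to a cluster of 13 compact genes, of which 3 had 0 counts throughout. His-61 (H2A) had 4, 7 and 3 counts in control and 51, 43 and 44 in CDK-2gut(-), with log2 fold 2.53 ± 0.49 (SE; edgeR adjusted p = 0.00894), with the call lost without CDK-2gut(-) library 3 (0.0586).

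Another 6 compact genes were tested without a call, with log2 folds of 0.12 to 0.99 and adjusted p of 0.451 to 0.914 in the composition fit. His-25 (H3) stood at 12, 11 and 12 counts in control and 21, 21 and 23 in CDK-2gut(-), and his-42 (H3) at 15, 14 and 7 against 33, 25 and 18. These genes, in the same cluster as his-11 and his-16, were detected in every control library. His-62 (H2B), beside his-61, had 9, 18 and 7 counts against 36, 27 and 26. For these 3 genes the CPM values lay above control without overlap, as did 23.4% of all C. elegans genes with a count, but the folds did not pass the test. The other genes without a call were his-48, his-59 and his-68.

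The other 39 compact genes did not pass the filter. Of these, 11 had 0 counts in all 6 libraries, and 28 had at most 24 counts in any library, with 87 counts in control and 230 in CDK-2gut(-) in sum. Of the 60 compact genes, 49 had a count in any library. Among these 49, CPM values lay without overlap above control for 25 and below control for 0. Among all 17070 C. elegans genes with a count in any library, 23.4% lay above and 4.12% below. A total of 17 compact genes had counts in CDK-2gut(-) and 0 in control, and 0 had the reverse. These 17 genes had only 1 to 11 counts summed over the 3 CDK-2gut(-) libraries, each of which held more C. elegans counts than any control. The same tally was not made over all genes, so no result is drawn from it.

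The make-up of compact counts by cluster differed between strains. His-5 to his-8 took 63.5%, 65.8% and 68.1% of compact counts in CDK-2gut(-) but 8.64%, 5.86% and 6.41% in control. His-38 and his-40 took 20.4%, 20.4% and 15.2% in CDK-2gut(-) and 12.3%, 4.69% and 26.9% in control. The cluster of 13 genes with his-25 and his-42 showed the opposite order in share, at 1.38%, 1.37% and 1.12% in CDK-2gut(-) and 34.6%, 10.9% and 25.6% in control. Its level was still higher in CDK-2gut(-), at 8.32, 8.03 and 8.07 CPM against 2.97, 2.63 and 1.99 in control. Control counts were too few to fix these shares closely, and shares within a library sum to a whole.

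**Figure D4:**
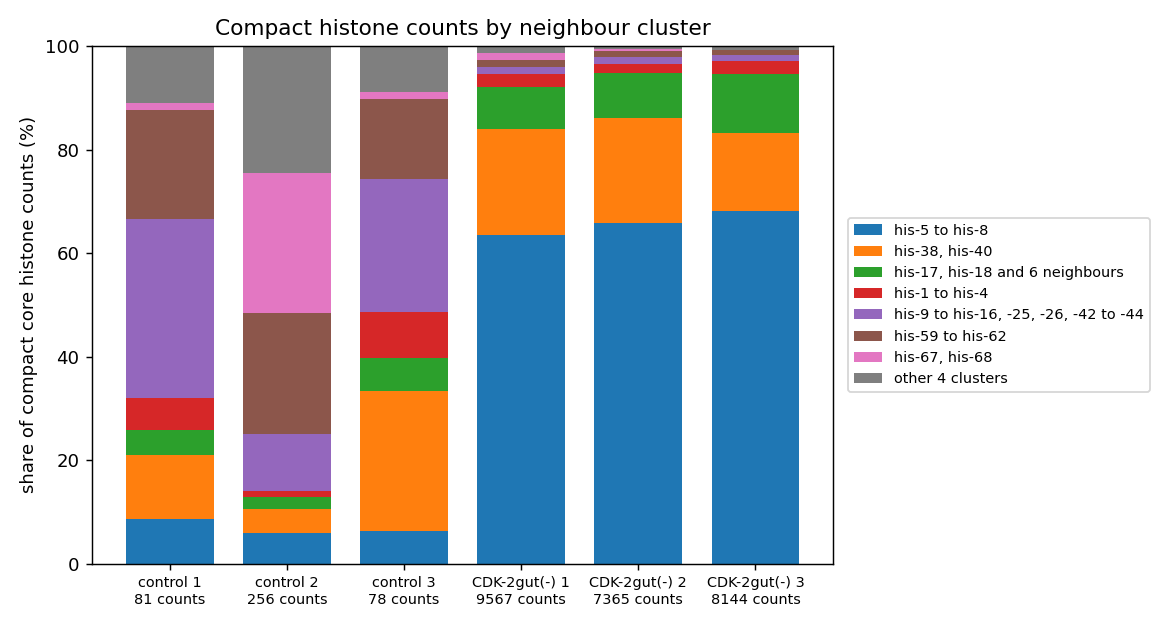
Share (%) of compact core histone counts in each library by cluster of neighbouring genes, with the number of compact counts under each bar. His-5 to his-8 hold 63.5% to 68.1% in CDK-2gut(-) and 5.86% to 8.64% in control, where the bars rest on 78 to 256 counts.

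The 4 core genes with longer models summed to 149, 178 and 192 CPM in control and 245, 252 and 278 in CDK-2gut(-), a 1.496-fold difference in means. The groups did not overlap on this scale but did when scaled to P. pacificus totals. Within replicate numbers 1, 2 and 3, the log2 fold scaled to P. pacificus totals was 0.67, 0.54 and 0.54. On plain P. pacificus totals, the median log2 fold over all tested genes was 0.50. Nearly all of these counts came from his-35, his-37 and his-41, which were well detected in control. His-41 (H2B) had 68.6, 69.2 and 73.8 CPM in control and 122, 132 and 142 in CDK-2gut(-), without overlap. For his-41 the log2 fold was 0.50 ± 0.18 (SE; edgeR adjusted p = 0.105) in the composition fit and 0.94 ± 0.18 (SE; edgeR adjusted p = 0.00728) in the spike-in fit. That spike-in call was lost without CDK-2gut(-) library 2 (0.053) and with plain P. pacificus totals (0.286).

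His-37 (H4) stood at 72.0, 97.6 and 104 CPM against 116, 110 and 126, and its log2 fold was -0.05 in the composition fit and 0.43 in the spike-in fit (edgeR adjusted p = 0.913 and 0.138). His-35 (H2A) stood at 8.59, 10.3 and 13.6 against 7.24, 10.02 and 10.8, with log2 folds of -0.62 and -0.16 (edgeR adjusted p = 0.23 and 0.766). His-36 had 120, 83 and 46 counts in control and 184, 125 and 146 in CDK-2gut(-), with an adjusted p of 0.937 in the composition fit by edgeR. These genes lie on neighbouring rows, so reads shared between them cannot be told apart without the annotation used. His-57 had 0, 7 and 0 counts in control and 0, 1 and 0 in CDK-2gut(-). Per count of the long core genes, compact genes had 0.0576, 0.135 and 0.0406 counts in control and 2.46, 2.32 and 2.59 in CDK-2gut(-).

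The H3.3 genes his-72 and his-71 were higher in each CDK-2gut(-) library than in any control, but by far less, and neither passed the test. Of all C. elegans genes with a count, 23.4% likewise lay above control without overlap in CPM. His-72 had 36, 49 and 9 counts in control and 153, 118 and 116 in CDK-2gut(-), or 3.82, 4.59 and 0.896 against 9.64, 9.38 and 10.3 CPM. The CDK-2gut(-) libraries lay close together, and control library 3 was well below the other two. Its log2 fold was 1.29 ± 0.47 (SE; edgeR adjusted p = 0.0984) in the composition fit and 1.63 ± 0.59 (SE; edgeR adjusted p = 0.0891) in the spike-in fit. His-72 was called higher by edgeR without a filter on low counts (adjusted p = 0.00552 and 0.00762). There, 7.08% (composition) and 9.63% (spike-in) of genes were called higher. DESeq2 with the spike-in scaling also called his-72 higher (adjusted p = 0.0375), along with 20.1% of all genes tested. For composition, DESeq2 did not call it (adjusted p = 0.0763). His-71 had 9, 3 and 8 counts in control and 22, 17 and 27 in CDK-2gut(-), with log2 fold 0.91 ± 0.66 (SE; edgeR adjusted p = 0.424). His-69 and his-70 had 0 counts in all libraries, which allows up to 3 counts per library.

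The share of his-71 in the counts of both genes was 20.0%, 5.77% and 47.1% in control and 12.6%, 12.6% and 18.9% in CDK-2gut(-). Exact binomial 95% intervals were wide, from 22.98% to 72.2% in control library 3 and from 8.05% to 18.4% in CDK-2gut(-) library 1. The mean share differed by -9.59 percentage points (two-sided exact permutation test, p = 0.6, where 0.1 is the smallest possible). Without control library 3 the difference was 1.80.

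In sum, compact counts differed more between strains than counts of his-71 and his-72. Single compact genes did not all do so, since his-25, his-42, his-59, his-62 and his-68 had composition-fit log2 folds of 0.12 to 0.63, below those of both H3.3 genes. There were 1.80, 4.92 and 4.59 compact counts per count of his-71 and his-72 in control and 54.7, 54.6 and 56.95 in CDK-2gut(-). This ratio does not depend on how libraries are scaled. Its mean was 3.77 ± 1.72 (SD, n = 3) and 55.4 ± 1.35 (SD, n = 3). For H3 alone, compact counts per H3.3 count were 0.956, 1.42 and 1.71 in control and 17.03, 16.3 and 18.1 in CDK-2gut(-). Neither ratio overlapped between strains. Since members were chosen with results of these data known, the ratios are given without a test.

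Linker histone genes varied widely between control libraries and overlapped between strains in sum. The 8 genes summed to 65.5, 128 and 6.97 CPM in control and 138, 86.7 and 96.4 in CDK-2gut(-). Control library 3 was the lowest of the 6 and control library 2 the second highest. The log2 ratio of the means was 0.68, and it was 0.15 without control library 3, 1.56 without control library 2 and 0.46 without CDK-2gut(-) library 1. No linker gene passed the test in either fit among the 5 tested. Without a filter on low counts, where 4.32% (composition) and 1.55% (spike-in) of genes were called lower, hil-7 was called lower in both. DESeq2 called no linker gene, but was run with the filter and so did not test hil-7.

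**Figure D5:**
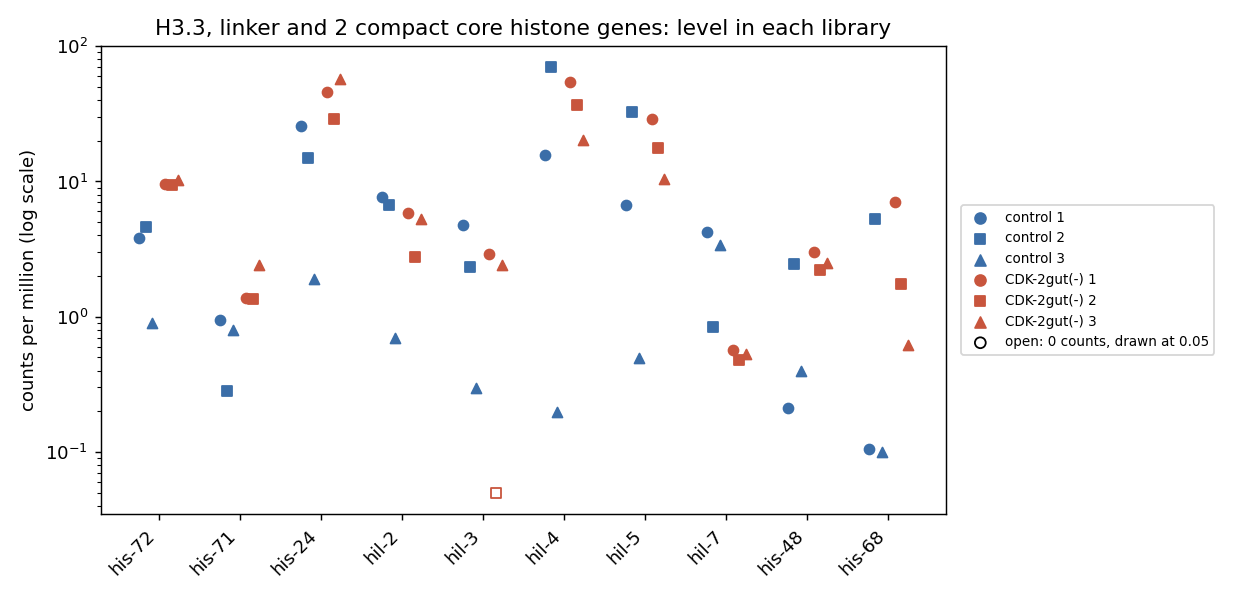
CPM (scaled to the C. elegans total; log scale) of the H3.3 genes his-72 and his-71, of 6 linker genes and of the compact genes his-48 and his-68, with 1 point per library and an open point for 0 counts. His-72 lies at 9.38 to 10.3 in CDK-2gut(-) and 0.896 to 4.59 in control, hil-7 lies lower in CDK-2gut(-), and hil-4, hil-5 and his-68 spread widely within each strain.

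His-24, an H1 gene, had 242, 158 and 19 counts in control and 725, 363 and 647 in CDK-2gut(-), or 25.7, 14.8 and 1.89 against 45.7, 28.9 and 57.4 CPM. The groups did not overlap, yet the spread within control was large. Its log2 fold was 1.27 ± 0.86 (SE; edgeR adjusted p = 0.412) in the composition fit, 1.55 ± 0.92 (SE; edgeR adjusted p = 0.321) in the spike-in fit, and 0.72 in the composition fit without control library 3.

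Hil-4 had 149, 746 and 2 counts in control and 861, 463 and 228 in CDK-2gut(-), and hil-5 had 63, 349 and 5 against 461, 223 and 117. In both genes the order of libraries was the same, with control library 2 and CDK-2gut(-) library 1 each the highest of its strain and the number 3 library the lowest. Their composition-fit log2 folds were 0.05 ± 1.43 and 0.19 ± 1.19 (SE; edgeR adjusted p = 0.99 and 0.944). They were -0.53 and -0.37 without control library 3.

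Of the 34 compact genes with counts but no call, 11 (32.4%) likewise had their highest CPM of each strain in control library 2 and CDK-2gut(-) library 1, as did 2 of the 15 called genes and 21.1% of all C. elegans genes with a count. His-68 (H2A) had 1, 56 and 1 counts in control and 112, 22 and 7 in CDK-2gut(-). His-48 (H2B), which shared the order, had 2, 26 and 4 counts against 48, 28 and 28. Control library 2 held 256 of the compact counts, and his-68 was the largest single part of them at 56. Without that library his-48 was called higher in both fits (adjusted p = 0.0391 and 0.0236) and his-68 in the spike-in fit (0.0393). This order and these genes were singled out after their values were seen, and the part of carried-over tissue was not tested, since its markers could not be matched.

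Hil-7 was lower in CPM in each CDK-2gut(-) library than in any control, as were 4.12% of all C. elegans genes with a count. It had 40, 9 and 34 counts in control and 9, 6 and 6 in CDK-2gut(-), or 4.24, 0.844 and 3.39 against 0.567, 0.477 and 0.532 CPM. Only 2 control libraries exceeded the filter, so it was not tested in the main fits. Without a filter its log2 fold was -2.86 ± 0.66 (SE; edgeR adjusted p = 0.000303) in the composition fit and -2.38 ± 0.80 (SE; edgeR adjusted p = 0.0297) in the spike-in fit. Where leaving out a library let it pass the filter, adjusted p in the composition fit was 0.00244 without control library 2 and 0.082 to 0.1 without a CDK-2gut(-) library.

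The remaining linker genes were low or without a call. Hil-2 had 73, 72 and 7 counts in control and 93, 35 and 60 in CDK-2gut(-), and hil-3 had 45, 25 and 3 against 46, 0 and 27 (edgeR adjusted p = 0.736 and 0.743 in the composition fit). Both were lowest of the controls in library 3. Hil-1 had 2, 3 and 0 counts against 1, 0 and 2, and hil-6 had 4, 0 and 0 against 0, 0 and 0. Compact genes had 0.131, 0.188 and 1.11 counts per linker count in control and 4.36, 6.76 and 7.49 in CDK-2gut(-), without overlap, though control library 3 owes its higher ratio to few linker counts.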

How the data were processed

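The table that the authors deposited holds raw counts by gene for both nematodes, without multi-mapping reads, as its name says. The submitters' processing notes name STAR and featureCounts, with no version. Builds, annotation and strand setting: not given in the sources used here. A low-input kit and paired reads were used, per the labels' protocols. Sequences and identifiers of other histone-related or marker genes were not used here.

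Which rows belong to C. elegans was inferred in earlier work from a change in profile across libraries between neighbouring rows, and a slightly earlier row was tried as the boundary too. Members, classes, lists and rules were chosen with earlier results of these data known. By rule, values were printed for every called member, H3.3-type and linker genes, and the 12 compact genes with the highest mean count, if at least 10. His-25, his-35, his-36, his-37, his-39, his-42, his-48, his-57 and his-62 lie outside it and were added after their values were seen. Histone classes follow the usual naming, and compact genes were defined after the data were seen. Clusters join members at most 10 rows apart.

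Genes were kept with filterByExpr (8309 genes). Tests were robust quasi-likelihood fits in edgeR 4.0.16 (R 4.3.3), with trimmed mean of M-values factors over C. elegans genes (composition) or P. pacificus totals times such factors (spike-in), and DESeq2 1.42.0 as an alternative. Standard errors are the log2 fold over the square root of F. The fit was tested on simulated data. Sums over members were not tested. Intervals and the floor of 3 counts cover counting error only.

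Libraries of the same number correlated in their deviations from group means at 0.122, -0.0475 and 0.205 over C. elegans genes and at 0.568, 0.581 and 0.848 over P. pacificus genes, against a threshold of 0.1. The threshold was met in every pair for the spike-in only. There, however, unlike numbers 1 and 2 correlated as much (0.562 and 0.568), while number 3 stood apart. These correlations thus did not separate libraries 1 and 2. C. elegans counts per P. pacificus count were 5.35, 4.51 and 2.78 in control libraries 1 to 3. In CDK-2gut(-) libraries 1 to 3 they were 5.19, 4.61 and 2.78, so this ratio was close within each number. Whether libraries of the same number were prepared together was not tested. In C. elegans genes, control 2 correlated best with CDK-2gut(-) 1 (0.417).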

Additional observations from a re-analysis of the deposited data

How the results depend on the processing

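Across 15 alternatives to the composition fit and 14 to the spike-in fit, no called member changed direction. Requiring a mean of at least 50 counts lowered the number of histone genes called higher to 8 (composition) and 9 (spike-in), since fewer were tested. Of all genes, 15.1% and 22.1% were then higher. No filter on low counts gave 1 gene lower in each fit, hil-7. Leaving out single libraries gave 11 to 15 higher in the composition fit, 12 to 18 in the spike-in fit, and 0 to 1 lower in both. Over all genes tested, 5.81% to 12.4% and 8.13% to 14.9% were then higher, and 3.07% to 8.48% and 1.26% to 2.76% lower. The replicate number as a block gave 15 and 16 higher and 0 lower, and changed no call of a member, with 10.2% and 21% of all genes higher. The log2 ratio of summed compact counts was 2.22 when all core his- genes were summed, a definition added after the data were seen, and 5.29 to 6.28 with 1 library left out at a time. The log2 change of compact counts per linker count ranged from 3.25 to 5.28, and the difference in the his-71 share from -18.8 to 1.80 percentage points, positive without control library 3. For these shifts the cause was not tested. Depth limits the compact genes in control, where most had 0 to 3 counts over 3 libraries.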
